A study of Mus musculus with 4 samples.

Results

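The response of wild-type (WT) splenic dendritic cells (DC) to lipopolysaccharide (LPS) was read from 2 arrays, with the WT LPS intensity of each probe set taken over its WT PBS intensity. A probe set is a group of array probes that together measure a transcript. A probe set belonged to the set described here if the brighter of its WT intensities was at least 32, which held for 11719 of 45037 probe sets (26%). Of these, 8740 reached 32 on both arrays, 1903 on the PBS array only and 1076 on the LPS array only. Just inside the limit lay a probe set of Smad1, a transcription factor of the BMP pathway, at 32.01 with PBS and 24.9 with LPS. Just outside lay a probe set of Ilf2, which encodes an RNA-binding protein, at 28.8 with PBS and 31.99 with LPS, and both genes have other, brighter probe sets. Both WT samples were CD11c-selected splenic DC from mice of 8 to 12 weeks, whose background the labels spell C56BL/6, and they were pooled from 5 to 6 mice and cultured overnight with PBS or with LPS at 100 ng/ml. The labels describe the cells as CD11c+CD80+CD86+MHC-II+. A second pair of arrays, MARCO-/- PBS and MARCO-/- LPS, came from mice that lack the scavenger receptor MARCO and were treated alike. It shares no array with the WT pair, although the 4 arrays were normalized together. There was 1 array per condition, hence no replicates, no error and no test of any ratio. Genes are called at the 2-fold threshold of the methods, and this threshold does not measure the spread between animals or cultures.

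LPS, a component of the outer membrane of Gram-negative bacteria, is bound by CD14 and by the complex of TLR4 with MD-2 (encoded by Ly96). Signalling through MyD88 leads to NF-κB and MAP kinases, whereas signalling through TRIF (encoded by Ticam1) leads to interferon regulatory factors and to type I interferon, which acts back on the cells through STAT factors. DC that receive such a signal mature: they reduce the uptake of antigen, display peptides on stable MHC class II, raise the ligands that costimulate T cells, and move toward the T cell zones of lymphoid tissue.

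Of the 15 genes of highest ratio among those with both values at least 32, 8 were on the lists of antiviral interferon-stimulated genes and interferon-induced GTPases, and promoters of the highest genes are shown with the letters of 3 regulatory motifs. The windows run from 250 bases before to 50 bases after the start of the gene (300 bases, RefSeq, GRCm38.p6), each written 5′ to 3′ on the strand of the gene. Capitals mark matches, on either strand, to the letters GAAANNGAA of the interferon-stimulated response element (ISRE), GGANTTTCC of a κB site and TGANTCA of an AP-1 site. They are shown for the 6 highest genes, among those with both values at least 32, whose window held a match. Rsad2 lies at chr12:26456403-26456702 on the minus strand, with an ISRE match that begins -119 and an AP-1 match that begins -87 bases from the start. Xaf1 lies at chr11:72301379-72301678 on the plus strand, with an AP-1 match at -38. Gbp2 lies at chr3:142620413-142620712 on the plus strand, with an ISRE match at -58 and an AP-1 match at -102. Tgtp1 lies at chr11:48992197-48992496 on the minus strand, with a κB match at -121 and an ISRE match at -77. Oas1g lies at chr5:120887564-120887863 on the minus strand, with 2 overlapping ISRE matches at -18 and -12. Serpinb9 lies at chr13:33004291-33004590 on the plus strand, with an ISRE match at -45.
Rsad2: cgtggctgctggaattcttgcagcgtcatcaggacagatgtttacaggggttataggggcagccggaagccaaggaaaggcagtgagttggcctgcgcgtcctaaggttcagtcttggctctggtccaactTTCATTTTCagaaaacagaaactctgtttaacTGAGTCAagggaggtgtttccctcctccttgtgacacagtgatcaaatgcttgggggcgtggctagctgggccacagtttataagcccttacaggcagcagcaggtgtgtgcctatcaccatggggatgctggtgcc
Xaf1: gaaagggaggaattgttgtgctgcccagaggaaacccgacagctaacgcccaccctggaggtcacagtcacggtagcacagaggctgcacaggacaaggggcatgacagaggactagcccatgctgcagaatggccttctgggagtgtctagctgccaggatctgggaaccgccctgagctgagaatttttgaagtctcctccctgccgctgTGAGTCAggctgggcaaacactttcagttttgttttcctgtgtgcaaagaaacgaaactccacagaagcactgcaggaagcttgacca
Gbp2: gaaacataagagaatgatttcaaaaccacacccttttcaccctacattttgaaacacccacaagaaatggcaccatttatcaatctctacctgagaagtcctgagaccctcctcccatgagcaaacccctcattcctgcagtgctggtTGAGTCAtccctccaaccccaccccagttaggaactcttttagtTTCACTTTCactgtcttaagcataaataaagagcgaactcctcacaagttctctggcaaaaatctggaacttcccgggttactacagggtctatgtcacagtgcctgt
Tgtp1: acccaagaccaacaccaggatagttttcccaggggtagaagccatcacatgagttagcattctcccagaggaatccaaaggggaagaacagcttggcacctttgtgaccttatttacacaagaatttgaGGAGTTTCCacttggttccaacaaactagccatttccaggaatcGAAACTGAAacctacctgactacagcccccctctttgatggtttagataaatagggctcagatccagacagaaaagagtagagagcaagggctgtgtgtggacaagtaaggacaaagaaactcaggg
Oas1g: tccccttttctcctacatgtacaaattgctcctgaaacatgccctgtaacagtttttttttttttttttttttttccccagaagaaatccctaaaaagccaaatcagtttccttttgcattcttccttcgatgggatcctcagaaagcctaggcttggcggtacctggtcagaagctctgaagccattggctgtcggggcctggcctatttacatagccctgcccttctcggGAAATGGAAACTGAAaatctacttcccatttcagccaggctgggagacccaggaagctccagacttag
Serpinb9: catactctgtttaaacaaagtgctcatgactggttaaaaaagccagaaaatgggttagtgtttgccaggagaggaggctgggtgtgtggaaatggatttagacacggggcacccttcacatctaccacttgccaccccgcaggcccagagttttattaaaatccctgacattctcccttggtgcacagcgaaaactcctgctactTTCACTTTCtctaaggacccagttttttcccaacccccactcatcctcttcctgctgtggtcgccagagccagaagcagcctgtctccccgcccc

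The ISRE letters were found in 15.2% of 171 promoters of genes at least 4-fold higher with LPS, in 11.4% of 272 promoters of genes at least 4-fold lower, in 7.23% of 3705 promoters of genes under 2-fold, and in 8.57% of the 27025 promoters in the reference. For the AP-1 letters the shares were 11.7%, 8.46%, 3.91% and 7.93% in the same order. For the κB letters they were 2.92%, 2.57%, 1.32% and 1.23%, where the first 2 shares rest on only 5 and 7 promoters. Promoters of genes that moved 4-fold, in either direction, thus held each motif more often than those of genes under 2-fold, without a test of the difference. Of the 15 highest genes, 11 had a promoter in the table, and 5 of those windows held the ISRE letters. A match of letters is a description of the window and not a site of binding.

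The intensity with LPS was at least 2-fold above that with PBS for 1321 of the 11719 probe sets (11.3%) and at least 2-fold below it for 2155 (18.4%). Among the probe sets that reached 32 on both arrays, 715 were higher (8.18%) and 873 were lower (9.99%), and over all probe sets 2069 were higher (4.59%) and 3591 lower (7.97%). The higher calls made up 38% of all calls, and 48.1% after quantile normalization of the 4 arrays. For a gene with several probe sets the one of highest mean log2 value over the WT arrays was used, and the gene was taken as measured if that probe set reached 32 on 1 of them. Of 6184 genes measured, 729 passed 2-fold upward (11.8%) and 995 downward (16.1%), with a median log2 ratio of -0.02 over all. At 4-fold, 221 genes were higher (3.57%) and 330 lower (5.34%), and at 16-fold 44 were higher and 55 lower. Of 472 called genes with another probe set in the set, all others passed 2-fold the same way for 342, at least 1 missed it for 127, and at least 1 passed it the opposite way for 3 (1810013L24Rik, Fem1b and Tmbim4). Under 3 other scalings of the arrays, 5802 genes had the same call and 382 had another call in at least 1 of them. A gene that is under 32 on 1 array and measured through the other must differ between them, so that the counts and medians of the groups below describe these 2 arrays. The counts of every group below are to be read beside the shares over all genes measured, 11.8% higher and 16.1% lower.

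**Figure D1:**
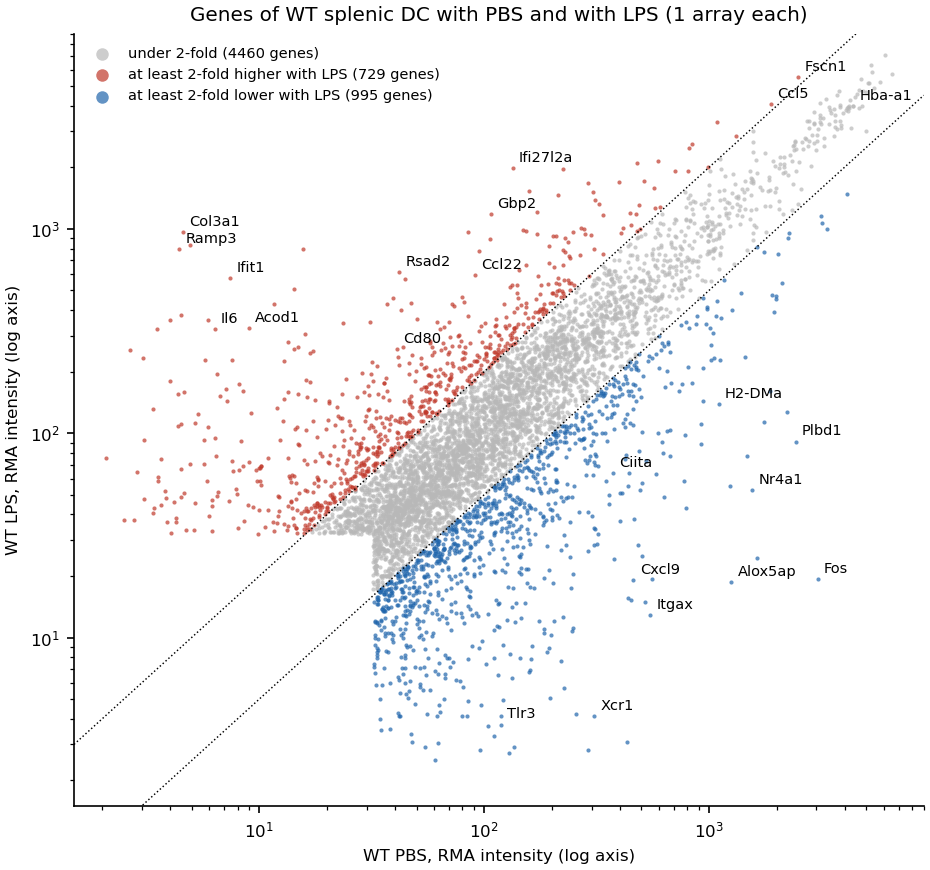
WT LPS intensity (y axis) against WT PBS intensity (x axis), both RMA intensities on log axes, with 1 point for each of the 6184 genes measured. Dotted lines mark 2-fold, with 729 genes above (red) and 995 below (blue), and the empty corner at the lower left is where neither value reached 32.

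Measurements outside the genes of DC also moved between the WT arrays. The 9 hybridization controls of the array, bacterial and phage transcripts that are added to the sample and not made by the cells, were all brighter on the WT LPS array, by 1.56- to 3.96-fold (median log2 ratio 1.42). In the MARCO-/- pair all 9 were dimmer with LPS, by 1.29- to 2.14-fold (median log2 ratio -0.84). The ratio of signal near the 3′ end to signal near the 5′ end was 1.45 with PBS and 1.86 with LPS for β-actin, and 1.77 and 2.17 for Gapdh. Genes of the basic machinery were nearly level. Of 20 ribosomal protein genes measured, none passed 2-fold in either direction (median log2 ratio -0.07, from -0.35 to 0.21), nor did any of 22 subunits of the respiratory chain (median 0.13, from -0.25 to 0.70). The part of the controls and of the 3′/5′ ratios in the LPS ratios was not tested.

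The markers of DC were compared next with the labels. H2-Aa, a chain of MHC class II, had 4999.8 with PBS and 3013 with LPS. Flt3, the receptor of the DC growth factor FLT3 ligand, had 533 with PBS and 308 with LPS, and Zbtb46, a transcription factor of conventional DC, had 42.3 with PBS and 67.5 with LPS. Itgax, which encodes CD11c, the protein used to select the cells, had 548 with PBS and 12.9 with LPS, so that its transcript was under 32 with LPS. The knocked-out gene itself was not measured in this set: Marco had 8.05 with PBS and 3.15 with LPS in WT and 3.95 with PBS and 4.25 with LPS in MARCO-/-, all under 32 on every array.

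Genes induced by type I interferon were higher on the LPS array almost throughout. Of 26 antiviral interferon-stimulated genes named here, 21 were measured, 19 passed 2-fold upward and 1 downward (median log2 ratio 3.20, against -0.02 over all genes measured). The median was 2.30 over the 13 genes with both values at least 32, since others entered through the LPS array only. Ifi27l2a, an interferon-induced protein of membranes, had 134 with PBS and 1986 with LPS, the highest ratio among genes with both values at least 32 (14.8-fold). Rsad2, which encodes viperin, an enzyme that blocks viral RNA synthesis, had 41.9 with PBS and 613 with LPS (14.6-fold higher), as were its other 2 probe sets. Usp18, a protease that removes ISG15 and dampens the interferon receptor, had 39.1 with PBS and 460.1 with LPS (11.8-fold higher). Zbp1, a sensor of Z-form nucleic acids, had 37.1 with PBS and 428 with LPS (11.5-fold higher). Xaf1, an interferon-induced gene of cell death, had 84.3 with PBS and 959.7 with LPS (11.4-fold higher). Oas1g, of the family that makes the 2-5A second messenger, had 47.2 with PBS and 435 with LPS (9.22-fold higher). Rtp4, an interferon-induced chaperone of receptors, had 44.4 with PBS and 569 with LPS (12.8-fold higher).

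Some of the same family were near the background with PBS, where a fold is set by the floor of the array, and only both values are given. Ifit1, which binds viral RNA that lacks the cap mark of the host, had 7.43 with PBS and 574 with LPS. Oasl1, a regulator of Irf7 translation, had 11.6 with PBS and 429.9 with LPS. Oasl2 had 8.15 with PBS and 174 with LPS, and Ifit3 had 12.9 with PBS and 226 with LPS. Ifitm1, which belongs to a family that restricts viral entry, went the other way at 114 with PBS and 11.4 with LPS. Mx2, Oas1b, Oas2, Oas3 and Eif2ak2 did not reach 32 on either WT array.

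All 9 interferon-induced GTPases that were measured, of 10 named here, were at least 2-fold higher (median log2 ratio 2.55, from 1.97 to 3.47). These proteins attack the vacuoles in which microbes hide. Gbp2, a guanylate-binding protein, had 107 with PBS and 1183 with LPS (11.1-fold higher). Tgtp1, of the immunity-related GTPases, had 158 with PBS and 1522 with LPS (9.62-fold higher). Ifi47, of the same family, had 172 with PBS and 1209 with LPS (7.02-fold higher). Irgm1, a regulator of that family, had 79.3 with PBS and 465 with LPS (5.87-fold higher), and Igtp had 41.5 with PBS and 236 with LPS (5.69-fold higher).

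The factors that carry the interferon signal moved in part. Of 8 interferon regulatory factors measured, 3 passed 2-fold upward and none downward, beside 11.8% and 16.1% over all genes measured. Irf7, the factor that amplifies type I interferon, had 31.3 with PBS and 196 with LPS. Irf9, the DNA-binding part of a complex that type I interferon activates, had 106 with PBS and 273 with LPS (2.57-fold higher). Irf1, of the interferon-γ response, had 215 with PBS and 504 with LPS (2.34-fold higher). Irf8, which DC need for their development, had 760.0 with PBS and 514 with LPS, and Irf4, of the same branch, had 143 with PBS and 157 with LPS, both under 2-fold. Of 13 STAT, JAK and interferon receptor genes, 4 were higher and 2 lower, beside 11.8% and 16.1% over all genes measured. Stat4, which responds to IL-12, had 106 with PBS and 891 with LPS (8.39-fold higher). Stat2 had 35.6 with PBS and 151 with LPS (4.24-fold higher), Stat5a, which responds to GM-CSF, had 55.2 with PBS and 211 with LPS (3.82-fold higher), and Stat3, the factor of IL-6 and IL-10, had 192 with PBS and 539 with LPS (2.80-fold higher). Ifngr1, a chain of the interferon-γ receptor, had 421 with PBS and 74.8 with LPS (5.64-fold lower). Ifnar2, of the type I interferon receptor, was 2.04-fold lower at 255 with PBS and 125 with LPS, but its other 2 probe sets missed 2-fold.

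Costimulatory ligands and genes of DC maturation formed the next group. Of 19 genes named here, 16 were measured, 11 were at least 2-fold higher and 1 lower (median log2 ratio 1.55). Cd200, which encodes a ligand that inhibits myeloid cells, had 42.8 with PBS and 399 with LPS (9.34-fold higher). Cd80, which encodes the B7-1 ligand of CD28, had 41.0 with PBS and 258 with LPS (6.28-fold higher). Cd40, which receives the signal of helper T cells, had 204 with PBS and 649 with LPS (3.18-fold higher). Socs2, an inhibitor of cytokine signals, had 212 with PBS and 1469 with LPS (6.93-fold higher). Il4i1, an amino acid oxidase of mature DC, had 239 with PBS and 737 with LPS (3.08-fold higher), and Traf1, an adaptor of TNF receptors, had 237 with PBS and 866 with LPS (3.66-fold higher). Pdcd1lg2, which encodes the PD-1 ligand PD-L2, had 20.2 with PBS and 116 with LPS, and Tnfsf4, which encodes OX40 ligand, had 24.9 with PBS and 115 with LPS. Cd86, which encodes the B7-2 ligand, had 255 with PBS and 489.8 with LPS, and Cd83, a marker of mature DC, had 821 with PBS and 1462 with LPS, both under 2-fold. The single lower member was Icosl, the ligand of ICOS, at 99.8 with PBS and 45.1 with LPS (2.21-fold lower), a call that was lost under at least 1 of 3 other scalings.

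Most genes of MHC class II and of proteins that act with it were lower with LPS. All 15 genes of the list were measured, 11 were at least 2-fold lower and 1 was higher. The median log2 ratio was -1.95, and -1.97 over the 14 genes with both values at least 32. The list also holds Ctse, which encodes cathepsin E, at 33.6 with PBS and 8.71 with LPS. Marchf1, a ubiquitin ligase that removes MHC class II and CD86 from the surface, had 401 with PBS and 37.0 with LPS (10.8-fold lower). H2-DMa, which loads peptides, had 1105 with PBS and 138 with LPS (7.99-fold lower), and its partners H2-DMb1 and H2-DMb2 had 347 with PBS and 58.6 with LPS and 734 with PBS and 160.1 with LPS. H2-Oa and H2-Ob, which restrain that loading, had 941 with PBS and 143 with LPS (6.57-fold lower) and 648 with PBS and 102 with LPS (6.34-fold lower). Ciita, the master regulator of the class, had 375 with PBS and 63.8 with LPS (5.87-fold lower), but of its other 2 probe sets 1 was under 2-fold. The chains themselves moved less. H2-Ab1 had 3356 with PBS and 996 with LPS (3.37-fold lower), the invariant chain Cd74 had 2249 with PBS and 905 with LPS (2.49-fold lower), and H2-Aa was 1.66-fold lower. Lgmn, an endosomal protease, was the 1 higher member at 136 with PBS and 327 with LPS (2.40-fold).

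Of 13 MHC class I genes measured, 2 were at least 2-fold higher and none lower (median log2 ratio 0.54). Over all genes measured 11.8% were higher and 16.1% lower, so that the higher count was close to the share over all. Psme2, a subunit of the proteasome activator PA28, had 815 with PBS and 2492 with LPS (3.06-fold higher), and Tapbpl, which edits the bound peptides, had 56.6 with PBS and 147 with LPS (2.59-fold higher). The immunoproteasome subunits Psmb8 and Psmb10 had 804 with PBS and 1414 with LPS and 345 with PBS and 644 with LPS, under 2-fold.

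**Figure D2:**
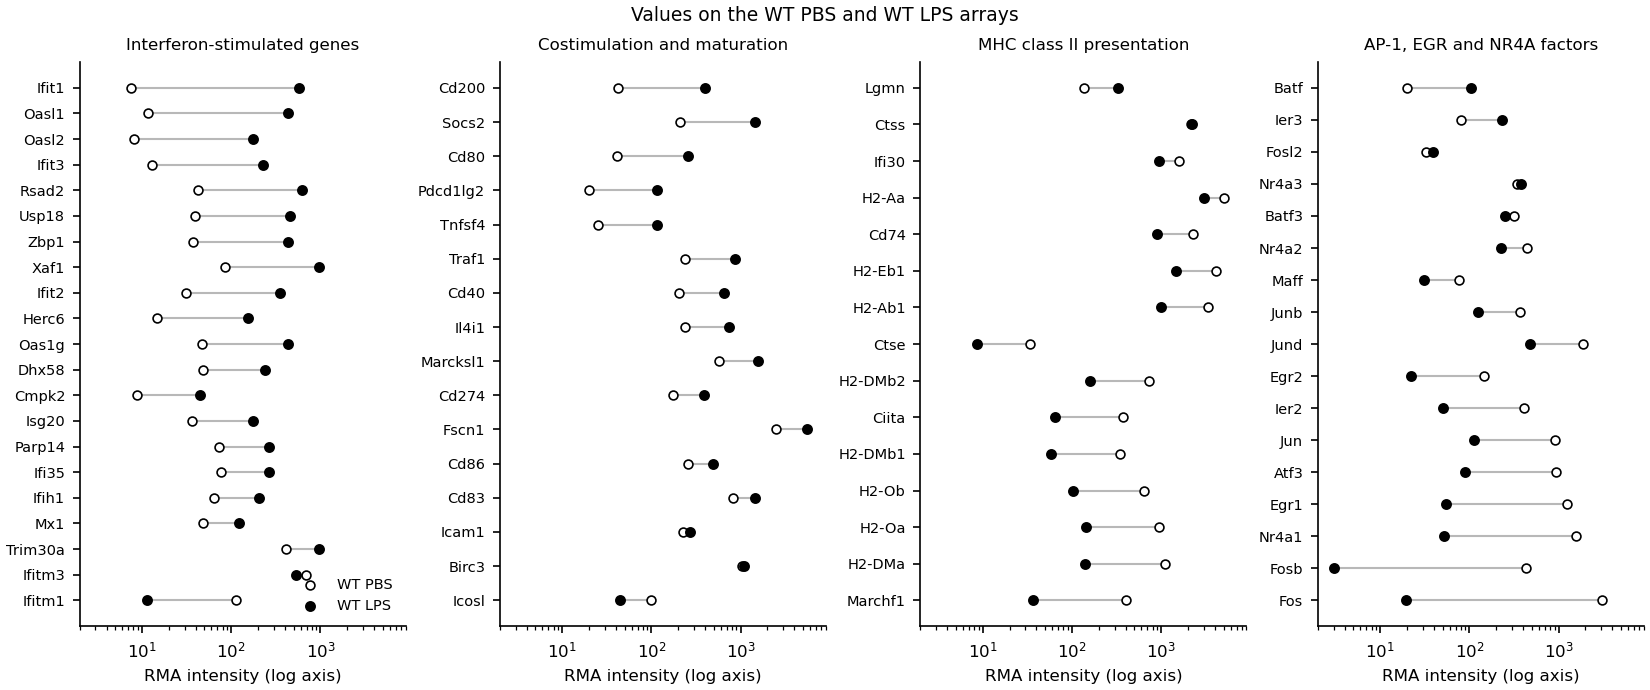
RMA intensity (log axis) on the WT PBS array (open circles) and the WT LPS array (filled circles) for the measured members of 4 gene groups, 1 array per condition, with a line joining the values of a gene. In the 2 panels at the left most filled circles lie to the right (19 of 21 and 11 of 16 genes at least 2-fold higher), and in the 2 panels at the right most lie to the left (11 of 15 and 12 of 17 at least 2-fold lower).

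Of 14 genes of LPS reception and its signalling that were measured, 2 were higher, 3 lower and 9 under 2-fold. These counts were close to the shares over all genes measured (11.8% and 16.1%), so that only single members are given. Ly96 had 19.1 with PBS and 77.2 with LPS, whereas Tlr4 was near the background on both arrays (13.3 with PBS and 11.8 with LPS) and Cd14 had 53.6 with PBS and 71.3 with LPS. Ticam1 had 13.5 with PBS and 35.2 with LPS, and Myd88 had 132 with PBS and 117 with LPS. Mapk14, which encodes the MAP kinase p38α, had 524 with PBS and 73.1 with LPS (7.17-fold lower), and Map3k8, the kinase that leads to ERK, had 68.7 with PBS and 21.7 with LPS. Of 4 Toll-like receptors measured, Tlr3, the sensor of double-stranded RNA, had 118 with PBS and 3.75 with LPS, and the other 3 were under 2-fold.

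Among 13 NF-κB and IκB genes, 3 were higher, 2 lower and 8 under 2-fold (median log2 ratio 0.21). Over all genes measured the shares were 11.8% higher and 16.1% lower. Nfkbib, which encodes IκBβ, had 57.2 with PBS and 281 with LPS (4.91-fold higher). Nfkb2, which encodes p100, had 62.2 with PBS and 189.7 with LPS (3.05-fold higher), Map3k14, the kinase NIK, had 41.4 with PBS and 115 with LPS (2.78-fold higher), and Relb had 317 with PBS and 573 with LPS (1.81-fold, under the threshold). Nfkbiz and Nfkbid, nuclear IκB proteins, had 636 with PBS and 168 with LPS (3.78-fold lower) and 138 with PBS and 33.4 with LPS (4.14-fold lower).

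Of 17 inhibitors of the response that were measured, 4 were higher and 5 lower, beside 11.8% and 16.1% over all genes measured. Il1rn, the antagonist of the IL-1 receptor, had 16.3 with PBS and 151 with LPS, and Dusp4, a MAP kinase phosphatase, had 20.1 with PBS and 72.1 with LPS. Tnfaip3, which encodes the ubiquitin editor A20, had 1128 with PBS and 367 with LPS (3.07-fold lower), and Dusp1, another MAP kinase phosphatase, had 3148 with PBS and 1156 with LPS (2.72-fold lower). Atf3, a transcriptional repressor of cytokine genes, had 923 with PBS and 88.5 with LPS (10.4-fold lower), with similar values in MARCO-/- (893 with PBS and 86.9 with LPS).

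Few cytokine transcripts were bright after the overnight culture. Of 22 interleukin, TNF and colony-stimulating factor genes named here, 10 were measured, 3 of them at least 2-fold higher and 4 lower. The shares over all genes measured were 11.8% and 16.1%. Il6 went from background to a clear signal at 6.33 with PBS and 322 with LPS, and Il15, a growth factor of NK cells and memory T cells, had 24.4 with PBS and 184 with LPS. Csf1, the macrophage growth factor, had 16.6 with PBS and 35.9 with LPS. Il18 had 219.5 with PBS and 26.7 with LPS, and Ltb, which encodes lymphotoxin-β, had 313 with PBS and 147 with LPS (2.13-fold lower). Il1b had 338 with PBS and 333 with LPS and Il12b had 87.4 with PBS and 77.8 with LPS, both nearly level. Tnf did not reach 32 on either array (25.4 with PBS and 27.6 with LPS), nor did Il10 (3.39 with PBS and 27.6 with LPS) or Ifnb1, which encodes interferon-β (3.38 with PBS and 4.97 with LPS).

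Chemokines split by member. Of 7 CC ligands measured, 3 were higher and 3 lower, and the median (-0.84) changed sign under several of the other settings, so that only single members are described. Ccl22, which draws CCR4-bearing T cells, had 91.1 with PBS and 592 with LPS (6.498-fold higher), and Ccl5 had 1884 with PBS and 4079 with LPS (2.17-fold higher). Ccl3, an early inflammatory ligand, had 306 with PBS and 100 with LPS (3.06-fold lower), and Ccl6 had 219.6 with PBS and 48.7 with LPS (4.51-fold lower). Ccl8 had 9.22 with PBS and 126 with LPS, but went the opposite way in MARCO-/- (43.6 with PBS and 8.11 with LPS). Of 5 CXC ligands, Cxcl16, a scavenger receptor and chemokine in 1 protein, had 140.0 with PBS and 532 with LPS (3.80-fold higher), and Cxcl10 had 23.3 with PBS and 102 with LPS. Cxcl9, a ligand of the same receptor as Cxcl10, had 461 with PBS and 19.2 with LPS.

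Of 8 chemokine receptors measured, 1 was higher and 4 were lower, beside 11.8% and 16.1% over all genes measured. Cxcr5, the receptor that leads to B cell follicles, had 20.5 with PBS and 143 with LPS. Xcr1, the receptor of cross-presenting DC, had 309 with PBS and 4.14 with LPS, Cx3cr1 had 88.2 with PBS and 9.06 with LPS and Ccr2 had 127 with PBS and 17.7 with LPS. Ccr9 had 157 with PBS and 32.3 with LPS (4.87-fold lower). Fpr2, a receptor of formyl peptides, had 17.7 with PBS and 145 with LPS, and Gpr183, the oxysterol receptor that positions DC, was 2.43-fold lower at 369 with PBS and 152 with LPS, but its other probe set did not pass 2-fold.

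The receptors for antigen uptake were mostly lower, with exceptions among the lectins. Of 10 C-type lectins measured, 4 were at least 2-fold higher and 5 lower, and their median (log2 -1.61) was 1.08 when both values had to reach 32. Clec4e, which encodes the receptor Mincle, had 5.89 with PBS and 357 with LPS, and its neighbour in the family Clec4d had 16.1 with PBS and 183 with LPS. Ly75, which encodes the endocytic receptor DEC-205, had 71.9 with PBS and 221 with LPS (3.08-fold higher). Cd209a, a mouse relative of DC-SIGN, had 219 with PBS and 7.65 with LPS, Mrc1, the mannose receptor, had 127 with PBS and 12.1 with LPS, and Clec4a2 had 67.1 with PBS and 8.21 with LPS. Cd209e and Cd209d had 60.4 with PBS and 2.51 with LPS and 85.1 with PBS and 4.91 with LPS. Of 8 Fc receptor genes measured, 5 were lower and none higher (median log2 ratio -1.83, and -0.14 over the 5 with both values at least 32). Fcer1g, a signalling chain of some Fc receptors, had 677 with PBS and 175 with LPS (3.87-fold lower). Fcgrt, which recycles IgG, had 116 with PBS and 11.3 with LPS. Of 6 scavenger receptor genes, 4 were lower, among them Cd36 at 270.0 with PBS and 92.4 with LPS (2.92-fold) and Cd68 at 447 with PBS and 112 with LPS (3.99-fold), and 1, Cxcl16, was higher.

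The integrins of leukocytes were lower too, with 5 of 9 measured at least 2-fold lower and none higher (median log2 ratio -1.39). Itgb2, the β2 chain, had 622 with PBS and 80.3 with LPS (7.75-fold lower), its partner Itgal had 409 with PBS and 156 with LPS (2.63-fold lower), and Itgb7, of gut homing, had 129 with PBS and 35.2 with LPS (3.66-fold lower). Among 21 genes of the cytoskeleton, 3 were higher and 3 lower, close to the shares over all genes measured (11.8% and 16.1%). Fscn1, the actin-bundling protein fascin of mature DC, had 2489 with PBS and 5540.2 with LPS (2.23-fold higher), Marcksl1 had 571 with PBS and 1580.2 with LPS (2.77-fold higher), and Tuba1a, an α-tubulin, had 515 with PBS and 1717 with LPS (3.33-fold higher). Rhob, a small GTPase, had 307 with PBS and 28.3 with LPS.

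Transcription factors of the immediate early kind, which cells transcribe within minutes of a stimulus, were much lower on the LPS array. Of 17 AP-1, EGR and NR4A genes measured, 12 were at least 2-fold lower and 2 higher (median log2 ratio -1.99). Fos had 3041 with PBS and 19.3 with LPS and Fosb had 433 with PBS and 3.07 with LPS, both at background with LPS. Nr4a1, an orphan nuclear receptor, had 1555 with PBS and 52.4 with LPS (29.7-fold lower), the lowest ratio among genes with both values at least 32. Egr1 had 1234 with PBS and 54.9 with LPS (22.5-fold lower), Jun had 917 with PBS and 111 with LPS (8.24-fold lower) and Ier2 had 411 with PBS and 50.8 with LPS (8.09-fold lower). Batf, an AP-1 factor that restrains Fos, had 19.9 with PBS and 104 with LPS, and Ier3, a survival gene, had 79.6 with PBS and 232 with LPS (2.91-fold higher). Klf2 and Klf4, Krüppel-like factors of quiescence and of differentiation, had 787 with PBS and 43.3 with LPS (18.2-fold lower) and 629 with PBS and 48.7 with LPS (12.9-fold lower). Zfp36l2, which destabilizes mRNA, had 1745 with PBS and 113 with LPS (15.5-fold lower). Hspa1b, an inducible HSP70 chaperone, had 1641 with PBS and 24.4 with LPS. The high values of these genes were on the PBS arrays of both genotypes: in MARCO-/- Fos had 2977 with PBS and 18.2 with LPS and Egr1 had 1748 with PBS and 40.1 with LPS.

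Metabolic genes differed in single members. Acod1, which makes itaconate, had 8.99 with PBS and 326 with LPS, and Ido1, which degrades tryptophan, had 5.32 with PBS and 124 with LPS, both with PBS values at background. Nos2, the inducible nitric oxide synthase, stayed at background (3.14 with PBS and 2.51 with LPS). Idi1, of isoprenoid synthesis, had 94.5 with PBS and 779 with LPS (8.24-fold higher). Among 10 sterol genes measured, 4 were higher and none lower (median log2 ratio 0.80), beside 11.8% and 16.1% over all genes measured. Fdft1, which commits farnesyl diphosphate to sterols, had 47.5 with PBS and 143 with LPS (3.005-fold higher), and Cyp51 had 41.6 with PBS and 101 with LPS (2.42-fold higher). Of 15 genes of glycolysis and hypoxia, 3 were higher and 3 lower, beside 11.8% and 16.1% over all genes measured. Pfkfb3, the enzyme that speeds glycolysis, had 84.3 with PBS and 373 with LPS (4.43-fold higher), Aldoa had 307 with PBS and 793 with LPS (2.58-fold higher), and Slc2a3, a glucose transporter, had 379 with PBS and 24.4 with LPS.

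Of 6 genes of lipid mediator synthesis measured, 4 were at least 2-fold lower and none higher (median log2 ratio -1.25, and -0.33 with both values at least 32). Alox5ap, the protein that presents arachidonate to 5-lipoxygenase, had 1255 with PBS and 18.7 with LPS. Ptgs2, which encodes the inducible cyclooxygenase COX-2, had 461 with PBS and 174 with LPS (2.64-fold lower). Of 19 lysosomal genes, 1 was higher and 3 were lower, no more than the shares over all genes measured (11.8% and 16.1%). Npc2, which hands on cholesterol, had 1088 with PBS and 3335 with LPS (3.07-fold higher), and Ctsa, cathepsin A, had 197 with PBS and 53.3 with LPS (3.69-fold lower). Gm2a, an activator of ganglioside breakdown that is not on that list, had 1869.9 with PBS and 161 with LPS (11.6-fold lower), and Plbd1, a phospholipase-like protein of myeloid granules, had 2429.9 with PBS and 90.8 with LPS (26.8-fold lower).

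Genes of survival were taken next. Of 12 BCL2 family genes measured, 4 were higher and 1 lower, beside 11.8% and 16.1% over all genes measured. Bcl2l14 had 50.4 with PBS and 363 with LPS (7.19-fold higher), Bcl2l11, which encodes the death inducer BIM, had 228 with PBS and 771 with LPS (3.38-fold higher), and Pmaip1, which encodes NOXA, had 1049 with PBS and 234 with LPS (4.48-fold lower). Serpinb9, an inhibitor of granzyme B that protects cells from cytotoxic granules, had 225 with PBS and 1952 with LPS (8.67-fold higher), and the related Serpinb9b had 4.93 with PBS and 829 with LPS. Of 24 cell cycle genes, 2 were higher and 4 lower, close to the shares over all genes measured (11.8% and 16.1%), so that only single members are given. Ccnd1 (cyclin D1) had 559.9 with PBS and 19.4 with LPS and Ccnd2 (cyclin D2) had 153 with PBS and 972 with LPS (6.36-fold higher). Cdkn1a, which encodes the inhibitor p21, had 72.2 with PBS and 427 with LPS (5.92-fold higher), and Mki67, a marker of dividing cells, had 232 with PBS and 90.8 with LPS (2.55-fold lower).

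Among genes that were under 32 with PBS, 157 were at least 4-fold higher, and the brightest with LPS included several outside the groups above. Ramp3, a partner of calcitonin-family receptors, had 4.41 with PBS and 794 with LPS. Flrt3, an adhesion protein, had 4.02 with PBS and 358 with LPS, Ndrg4 had 4.50 with PBS and 379.5 with LPS, Insl6, an insulin-like peptide, had 14.3 with PBS and 506 with LPS, and the predicted gene Gm9706 had 15.6 with PBS and 799 with LPS. All 5 had the same direction in MARCO-/-, where Ramp3 had 5.84 with PBS and 1107 with LPS and Flrt3 3.75 with PBS and 502 with LPS. In the other direction, 237 genes were under 32 with LPS and at least 4-fold lower. Slc40a1, the iron exporter ferroportin, had 521 with PBS and 14.98 with LPS, Hfe, a regulator of iron uptake, had 448 with PBS and 15.3 with LPS, and Aif1, a calcium-binding protein of macrophages, had 501 with PBS and 25.0 with LPS.

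**Figure D3:**
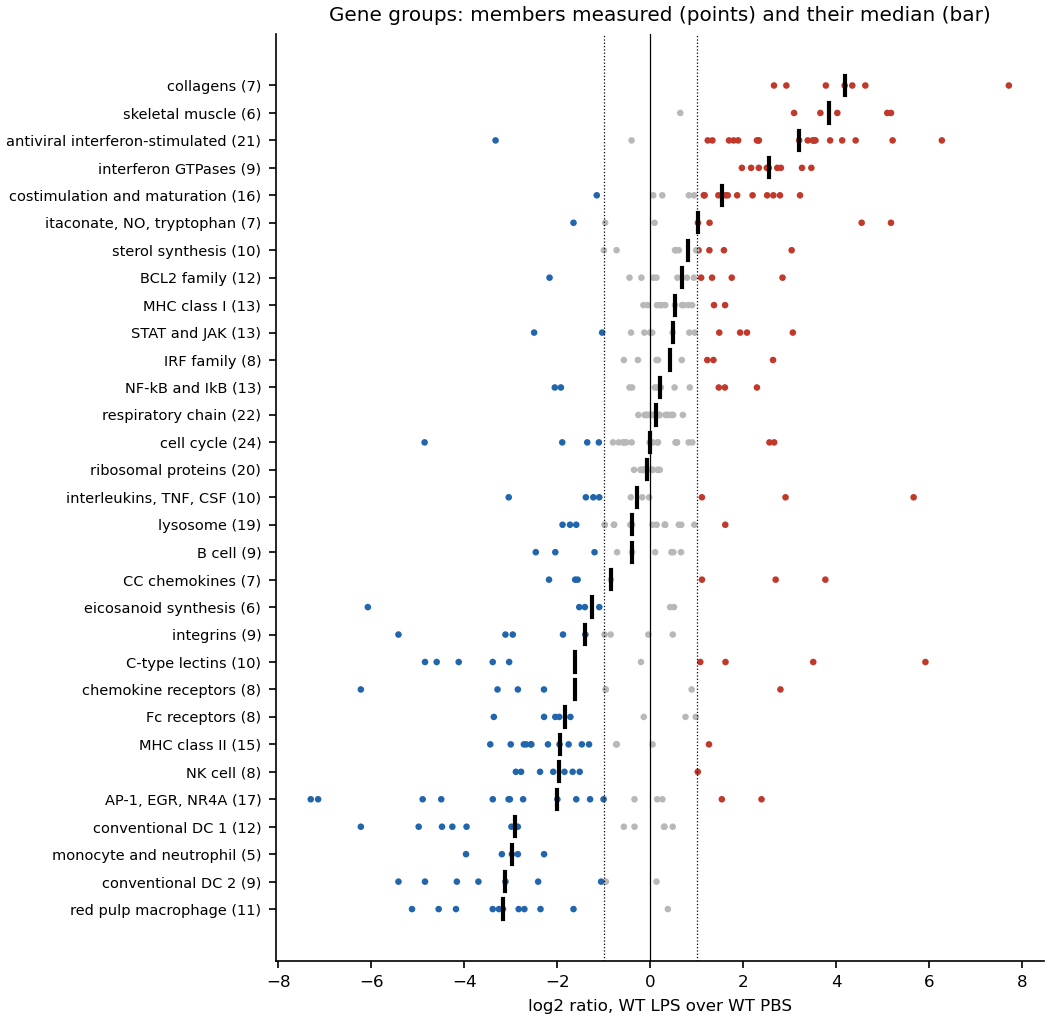
log2 ratio of WT LPS over WT PBS (x axis) for the measured members of 31 gene groups (rows, with the number of genes measured in parentheses), 1 point per gene and a black bar at the median. Dotted lines mark 2-fold, and the medians run from -3.16 for red pulp macrophage markers to 4.18 for collagens.

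Most markers of both conventional DC subsets that were measured were lower with LPS, and so were most of those of red pulp macrophages, NK cells, monocytes and neutrophils. In RNA from a mixture, fewer cells of a type and less RNA per cell cannot be told apart. Of 12 markers of conventional DC 1 (cross-presenting DC) measured, 7 were at least 2-fold lower and none higher (median log2 ratio -2.91). Cadm1, an adhesion protein, had 248.5 with PBS and 11.2 with LPS, Wdfy4, needed for cross-presentation, had 777 with PBS and 98.3 with LPS (7.90-fold lower), and Cd8a had 357 with PBS and 49.7 with LPS (7.19-fold lower). Ppt1, a lysosomal thioesterase, had 1473 with PBS and 77.3 with LPS (19.1-fold lower). The transcription factors of the subset were nearly level, with Batf3 at 314 with PBS and 248.8 with LPS and Id2 at 989 with PBS and 1386 with LPS. Over the 8 markers with both values at least 32 the median was -0.45, so that the list median rests on members at background with LPS. Of 9 markers of conventional DC 2, 7 were lower and none higher (median -3.11, and -1.05 with both values at least 32), among them Sirpa at 199 with PBS and 37.6 with LPS (5.31-fold lower) and Cd7 at 162 with PBS and 9.11 with LPS. Plasmacytoid DC markers split: of 6 measured, 2 were higher and 1 lower (median 0.41). The highest was Irf7, given above among the interferon factors, at 31.3 with PBS and 196 with LPS. The lower member was Ccr9, at 157 with PBS and 32.3 with LPS. The summed intensity over the 10 named here was 784 with PBS and 1308 with LPS. Siglech and Bst2, also on the list, had no probe set with their symbol alone.

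Of 11 markers of red pulp macrophages measured, 10 were at least 2-fold lower (median log2 ratio -3.16, and -2.36 with both values at least 32), and their summed intensity over the 14 genes named here was 2111 with PBS and 458 with LPS. Cd5l, a secreted scavenger protein, had 159 with PBS and 6.78 with LPS, and C1qa, of complement C1q, had 239.5 with PBS and 36.8 with LPS (6.52-fold lower). Spic, the transcription factor of these cells, was the 1 member under 2-fold, at 189 with PBS and 247 with LPS. Of 8 NK cell markers, 7 were lower and 1 higher (median -1.96): Klrd1, which encodes CD94, had 616 with PBS and 90.1 with LPS (6.84-fold lower), Gzma had 597 with PBS and 209 with LPS (2.86-fold lower), and Gzmb, granzyme B, had 41.6 with PBS and 84.7 with LPS (2.03-fold higher, a call that was lost under at least 1 of 3 other scalings). All 5 markers of monocytes and neutrophils that were measured were lower, such as S100a9 at 194 with PBS and 21.3 with LPS. B cell markers were closer to level, with 3 of 9 lower, and with Ms4a1, which encodes CD20, at 787 with PBS and 1113 with LPS. Their summed intensity over the 11 genes named here was 2434 with PBS and 2584 with LPS. The 3 erythroid genes measured were under 2-fold, with Hba-a1, an α-globin, at 4372 with PBS and 3971 with LPS. Of 3 plasma cell markers measured, Jchain, the joining chain of IgM and IgA, was lower at 396 with PBS and 152 with LPS (2.60-fold). Of 4 T cell markers, 1 was higher and 1 lower. The only endothelial marker measured was Pecam1 at 33.4 with PBS and 8.88 with LPS, and 15 of 16 did not reach 32 on either WT array. The part of these cells in the LPS ratios of the other groups was not tested.

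Some genes of connective tissue and of skeletal muscle reached 32 on the WT LPS array and not on the WT PBS array. Of 17 collagen genes named here, 0 reached 32 with PBS and 7 with LPS, and the summed intensity was 78.1 and 1531. Col3a1, a fibrillar collagen, had 4.57 with PBS and 959 with LPS. Of 20 skeletal muscle genes, 0 reached 32 with PBS and 6 with LPS, and the sum was 128 and 705. Acta1, the actin of skeletal muscle, had 4.65 with PBS and 159 with LPS, and Myh4, a fast myosin, had 2.09 with PBS and 75.6 with LPS. Of 24 matrix and fibroblast genes, 2 reached 32 with PBS and 12 with LPS, with Mgp, an inhibitor of calcification, at 3.03 with PBS and 233 with LPS and Sparc, a matrix protein, at 15.9 with PBS and 307 with LPS. Their sum was nearly level (1602 and 1927), and its largest term was S100a4, a calcium-binding protein that leukocytes also make, at 1382 with PBS and 485 with LPS. In the MARCO-/- pair the order was turned: 2 collagen genes reached 32 with PBS and 0 with LPS, as did 2 and 0 of the muscle genes and 10 and 2 of the matrix genes. Without the genes of all lists of other cells, 1296 probe sets were at least 2-fold higher in WT and 2123 lower. Whether tissue of these kinds came with the cells was not tested. Marco was under 32 on all 4 arrays and so gives no check of the genotype that each array is labelled with.

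**Figure D4:**
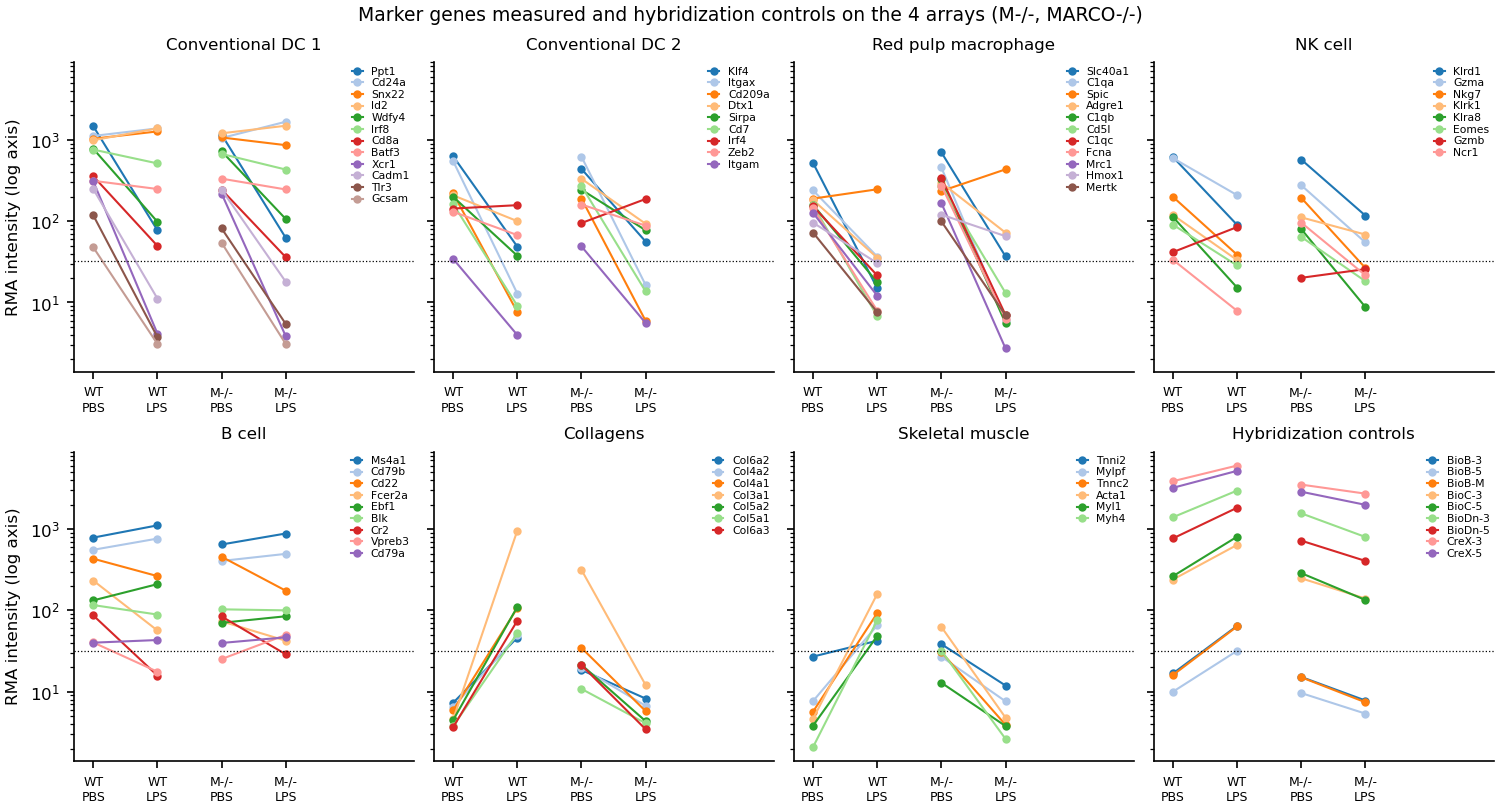
RMA intensity (log axis) on the 4 arrays for measured marker genes of 5 splenic cell types, for collagen and skeletal muscle genes, and for the 9 hybridization controls, with 1 line per gene within each genotype and 1 array per condition. The dotted line marks 32, and collagens, muscle genes and controls run up from PBS to LPS in WT and down in MARCO-/-.

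The WT response was then set beside that of MARCO-/- DC, whose own share of calls over the same 11719 probe sets was 11.9% higher and 11.9% lower. These probe sets were chosen by their WT values. Of them, 1903 reached 32 on the WT PBS array only and 1076 on the WT LPS array only. Such probe sets must differ between the WT arrays, so that the shares and counts do not compare the genotypes on equal terms. Of the 1321 probe sets at least 2-fold higher in WT, 983 passed 2-fold the same way in MARCO-/- (74.4%), 283 missed it and 55 passed it the opposite way. Of the 2155 lower in WT, 1214 passed the same way (56.3%), 941 missed it and none passed the opposite way. Among probe sets at least 4-fold higher or lower in WT, 85.2% of 393 and 93.1% of 728 passed 2-fold the same way. Pearson's r and Spearman's rho of the log2 ratios of both genotypes were each 0.833 over the 11719 probe sets, as a description across probe sets of arrays that were normalized together.

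The interferon, maturation, MHC class II and immediate early groups had the same direction in MARCO-/-. Of the 21 antiviral interferon-stimulated genes, 19 were at least 2-fold higher there too (median log2 ratio 2.70), and of the 15 MHC class II genes 11 were lower (median -1.88). Of the 16 maturation genes, 12 were higher (median 1.41), and of the 17 immediate early genes 11 were lower (median -2.03). Serpinb9b, Il6 and Clec4e had 3.35 with PBS and 902 with LPS, 7.37 with PBS and 491 with LPS and 7.12 with PBS and 499 with LPS. The ratios of Tgtp1 and Ifi47, which were brighter with PBS in MARCO-/-, were smaller there: Tgtp1 had 330.1 with PBS and 1155 with LPS and Ifi47 339 with PBS and 1031 with LPS, with log2 ratios of 1.81 and 1.60, against 3.27 and 2.81 in WT.

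Of the 6184 genes measured in WT, 4704 reached 64 on 1 of the 4 arrays or more. Of these, 33 had a WT ratio at least 4-fold above the MARCO-/- ratio and 2 at least 4-fold below it. Genes under 32 on both WT arrays were left out even where a MARCO-/- array was bright, so that the 2 counts cannot be weighed against each other. The 10 largest above were Col3a1, Mgp, Car3, Postn, Acta1, Myh4, Sparc, Rgs5, Bgn and Tnnc2, all of matrix, muscle or vessel walls except the carbonic anhydrase Car3, which muscle and fat hold. Col3a1 had 315 with PBS and 12.1 with LPS in MARCO-/-, and Acta1 had 62.7 with PBS and 4.80 with LPS. The 2 below were Lifr, the receptor of leukemia inhibitory factor, at 118 with PBS and 4.14 with LPS in WT and 27.0 with PBS and 4.45 with LPS in MARCO-/-, and Cirbp, a cold-inducible RNA-binding protein, at 133 with PBS and 32.4 with LPS and 55.7 with PBS and 60.7 with LPS. The 55 opposite probe sets stood for 35 genes among the 40 with a single symbol, and 20 of these genes were in the lists of collagens, matrix and muscle. The others were Acta2, Cald1, Car3, Ccl8, F13a1, Fstl1, Gja1, Gng11, Hspb1, Igfbp3, Map3k12, Rgs5, Rnase4, Serping1 and Serpinh1. The difference between the genotypes was not tested.

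**Figure D5:**
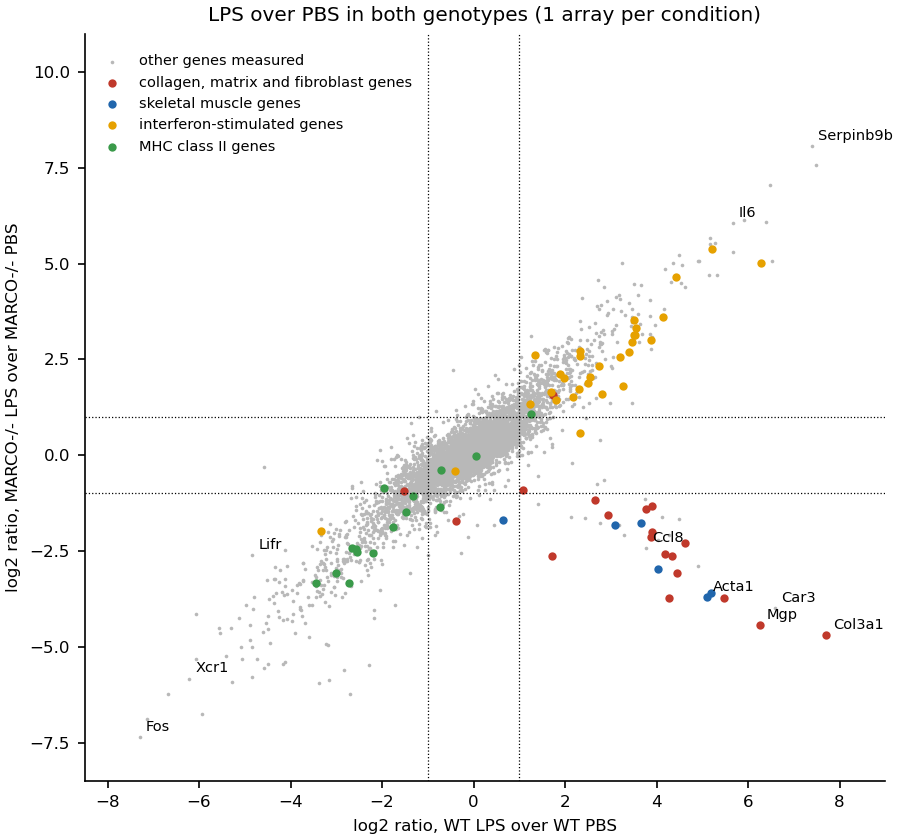
log2 ratio of MARCO-/- LPS over MARCO-/- PBS (y axis) against that of WT LPS over WT PBS (x axis) for the 6184 genes measured in WT, 1 array per condition, with dotted lines at 2-fold. Interferon-stimulated and MHC class II genes lie along the rising diagonal, and most collagen, matrix and muscle genes lie at the lower right, with Col3a1 at 7.71 and -4.71.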

How the data were processed

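RNA of CD11c-selected splenic DC was measured on 4 arrays, 1 per condition. The methods name them Mouse Genome 430 2.0 arrays, whereas the names of the deposited probe sets carry the letters PM. The type of array was not checked further. The deposited intensities are linear values that the authors background-corrected, normalized and summarized per probe set with RMAexpress, in a version the sources used here do not give. According to the methods 3 pools were made per genotype, and the sources used here do not say which pool was hybridized. The plan allowed for linear or log2 values, so that log2 of the values was taken with no offset and WT LPS was compared with WT PBS.

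Of 45141 probe sets, 104 array controls were left out. A probe set entered if its brighter WT intensity was at least 32. The median of all intensities was 4.83 on the WT PBS and 4.98 on the WT LPS array, and values near it are background. Of the 11719 probe sets, 8820 had exactly 1 gene symbol in the annotation used, 193 had several and 2706 are not listed there. Folds are printed where both values reach 32, and both values otherwise. Of the probe sets that entered, 661 had exactly the same value on 2 arrays. Precision is limited by the number of arrays, 1 per condition, so that a ratio has no error and no test, and no batch was given for the arrays.

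The probe sets and the 45 gene lists were chosen with earlier results of these data known. Genes were named by a rule: the 15 highest and 15 lowest ratios with both values at least 32, the 10 brightest in each direction among genes under 32 on the other array and at least 4-fold apart, up to 8 members of each list with the largest ratios, cell type markers, and the 10 largest differences between genotypes each way. Genes named beyond it were chosen after their values were seen: Cd86, Cd83, Myd88, Cd14, Tlr4, Tnf, Il10, Ifnb1, Il1b, Il12b, Nos2, Dusp1, Lgmn, Icosl, Ifitm1, Batf, Ier3, S100a4 and members of the opposite probe sets. Promoters were taken from RefSeq windows on GRCm38.p6, which matched 5093 of the 6184 genes measured.

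Counts were repeated under 17 other settings and list medians under 11. They were other scalings (median centring, quantile normalization, cyclic loess), other minimum values and filters, other thresholds, an offset, other choices of probe sets, and the removal of genes of other cells. Leaving out probe sets of equal value was added after the data were seen. The steps recovered planted ratios on simulated data. Calculations used Python 3.11.15, numpy 2.4.6, pandas 2.3.3, matplotlib 3.10.9, and R 4.3.3 with limma 3.58.1.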

Additional observations from a re-analysis of the deposited data

Results flagged for a closer look

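The collagens that were measured had a median log2 LPS ratio of 4.18 in WT and -2.30 in MARCO-/-. The matrix and fibroblast genes had 3.89 and -2.07, and the skeletal muscle genes 3.84 and -2.40. Both WT values reached 32 for 0 of the collagens, 0 of the muscle genes and 2 of the matrix genes. The others entered through the WT LPS array only and must be higher there. The positive sign of the WT medians was thus set by the choice of genes. These 3 groups were picked out because their medians pointed in opposite directions in the genotypes, which was not tested. In the same way, 55 probe sets were at least 2-fold higher with LPS in WT and at least 2-fold lower in MARCO-/-. None was lower in WT and higher in MARCO-/-, among the 11719 probe sets that were chosen by their WT values.

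The 9 hybridization controls, which are outside the comparisons of genes, had a median log2 ratio of 1.42 in WT and -0.84 in MARCO-/-. All 9 went up in WT and down in MARCO-/-, as the 3 gene groups did, and the relation between them was not tested.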

How the results depend on the processing

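The counts depended on the limits chosen. Against 1321 probe sets higher with LPS, there were 341 with a minimum 8 times as high, 2069 with no minimum, 715 with both values at least 32, 698 with 32 added to each value and 729 with 1 probe set per gene, and 2432, 604 and 393 at thresholds of 1.5-, 3- and 4-fold. Against 2155 lower, there were 1349 with a minimum of 64, 385 with a minimum 8 times as high, 3591 with none, 873 with both values at least 32, 1022 with 32 added and 995 with 1 probe set per gene, and 3426, 1111 and 728 at 1.5-, 3- and 4-fold. The share of higher calls, 38%, was 48.1% after quantile normalization, and the share of calls that passed the same way in MARCO-/-, 63.2%, was 78.1% with that same minimum. The other settings kept these values within 1.5 times for counts and 10 percentage points for shares. Centring, quantile normalization and cyclic loess moved the median log2 ratio of -0.085 to -0.128, 0.007 and -0.042.

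Of 27 lists with a median log2 ratio of at least 0.5 in size, 22 were reversed under none of the 11 settings. Of the 27, 20 had a median that moved by over 1.5-fold under at least 1 setting. A setting that left no gene of a list gave no median. This held for some settings of the collagens, skeletal muscle genes, monocyte and neutrophil markers and Toll-like receptors, which such settings could not reverse. The collagen median (4.18) was 1.58 with 32 added to each value, where the antiviral interferon-stimulated median (3.20) was 1.9995 and that of red pulp macrophage markers (-3.16) was -1.85. The Fc receptor median (-1.83) was -0.14 with both values at least 32. The CC chemokine median (-0.84) was 0.20 after quantile normalization, 0.12 after cyclic loess, 0.14 with a minimum of 16, 1.11 with the highest minimum and 0.0926 with none. The CXC chemokine median was -1.33 with the highest minimum. The C-type lectin median was 2.86 with the highest minimum, 1.08 with both values at least 32 and 1.35 with a filter on the mean of the 4 arrays. In the main setting the endothelial median rested on 1 gene, Pecam1. The median was 0.53 after quantile normalization and 0.51 with a minimum of 16. With no minimum it was 0.37 and with the filter on the mean 0.31, over the genes that each setting let in. The matrix and fibroblast median was -0.95 with both values at least 32. The genes behind a median were chosen anew under each scaling, minimum and filter, so that these medians can cover other genes. Any further cause of the changes was not tested. No paired analysis was possible because each condition had 1 array, which leaves no replicates to pair, and the sources used here do not say whether the PBS and LPS arrays of a genotype came from the same pool.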
